A study of Drosophila melanogaster with 5 samples.

Results

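Upstream open reading frames longer than 100 aa (here long uORFs) are reading frames that lie in the 5′ UTR of an annotated mRNA. They exceed the 100 aa above which the study counts a protein-coding ORF as canonical. They were taken as all uORFs whose listed parts sum to over 300 nt and were counted once per set of coordinates. The 219 entries that meet this rule are 127 distinct long uORFs, which is 0.853% of the 14888 distinct uORFs listed. They were listed under 208 transcripts, and 111 of them could be paired with the annotated CDS of their own transcript, in 98 genes. Values exist for 126 of the 127. The uORF FBtr0333869_3 of l(3)80Fg, on 3LHet, has none, so every count below is out of 126 unless stated.

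Cultured Drosophila S2 cells, an embryonic line of blood cell character, were the source of all 5 samples. Ribosome footprints were sequenced from small polysomes (mRNAs with 2 to 6 ribosomes), from large polysomes (7 or more), from all polysomes after rRNA depletion, and again, more deeply, from a biological repeat of the small polysome fraction (the extensive library). Total cytoplasmic mRNA was the control. Among the footprint fractions only the small polysomes have a repeat, so no p-value is given. Intervals on ratios of reads cover counting error only. Intervals on shares treat uORFs as independent, which overlapping ones are not, and cover no spread between libraries. The blood cell genes srp, Pxn and Nplp2 had mRNA densities of 109, 327 and 3328 RPKM (reads per unit of length and of sequencing depth), whereas the hemocyte gene Hml was nearly absent at 0.0190 RPKM. The steps between RPKM values put the libraries at about 5498000 mapped reads (small polysomes), 2625000 (large), 3190000 (all) and 9160000 (extensive). On the shortest long uORFs the minimum of 5 reads was worth 1.80 to 6.29 RPKM, so the density cut-off was stricter than this minimum in every library.

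A ribosome that scans an mRNA from its cap meets the uORFs before the CDS. Translation of a uORF generally reduces the number of ribosomes that reach the CDS, although scanning may resume after a short uORF, and in the mRNA of the mammalian stress factor ATF4 uORFs hold the CDS back until the cell is stressed. Reinitiation is known to become less likely as a uORF gets longer. A reading frame that continues into the CDS in the same frame would instead extend the protein at its N-terminus.

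The long uORFs were between 303 and 909 nt (up to 303 aa), with a median of 354 nt or 118 aa. Of the 127, 105 encoded at most 150 aa, 14 encoded more than that but at most 200 aa and 8 encoded over 200 aa. Most lay in 1 unbroken part, and 44 (34.6%) were spliced from 2 to 4 parts, against 14.3% of the shorter uORFs. Their leaders were crowded with uORFs. The median long uORF lay in a transcript that listed 5 uORFs, and the most crowded transcript listed 19, against a median of 3 over shorter uORFs. Where a uORF was listed under several transcripts, the most crowded one was taken. In all, 113 of the 127 (89.0%) overlapped another listed uORF on the same strand, against 47.3% of shorter uORFs. Length, which gives a frame more bases to meet a junction or another frame, was not adjusted for in these contrasts. Where 2 reading frames overlap, the deposited values do not tell which of them a footprint belongs to. Members also overlapped each other, since 23 of them fell in 11 groups, which leaves 115 separate stretches. In the later annotation BDGP6 the 5′ UTRs of the paired hosts were between 209 and 3630 nt, with a median of 994 nt, of which a long uORF took a median of 40.1%. For 4 long uORFs the reading frame was longer than the CDS it precedes, as in pgc, where the uORF had 336 nt and the CDS 216 nt. The pgc gene encodes a small germline repressor of transcription, and no mRNA or footprint was listed for this uORF.

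The X chromosome carried 40 of the 127 long uORFs, 31.5% (95% Wilson interval 24.1 to 40.0), against 18.2% (17.6 to 18.8) of shorter uORFs. Counted by separate stretches the share was 30.4% (22.8 to 39.4, 35 of 115). These intervals treat uORFs as independent, which neighbouring ones are not. Of the other arms, 3R carried 26 long uORFs, 2R 22, and 2L and 3L 18 each.

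No long uORF overlapped an annotated CDS on its own strand, and only 8 of the 14888 distinct uORFs of all lengths did (13 entries). By the study's methods uORFs were sought only within annotated 5′ UTRs, so little such overlap could occur at any length. On the opposite strand 9 long uORFs (7.09%) overlapped a CDS, against 0.894% of shorter ones, a contrast not adjusted for length. The reading frame in Ccdc58 (CG15881, 312 nt) lay wholly opposite the CDS of CG34116, and the one in pgc wholly opposite that of T3dh. In CG14797, 476 of 528 nt faced CG32809, and in CG4622, 308 of 483 nt faced CG11413. A pair of overlapping reading frames in CG6808 faced CG14711 over 215 and 241 nt. The longest reading frame of all, in Dred (CG9279), faced CG43885 over 189 nt, that of Eno (enolase, a glycolytic enzyme) faced Rrp40, an exosome subunit, over 142 nt, and that of the Mediator subunit MED6 faced CG8481 over 13 nt. For 6 of the 9 the overlap covered at least 50% of the uORF. None of the 9 passed the cut-offs for translation, and none reached the coverage cut-off, in any library. In at least 1 library 13.5% of all long uORFs passed and 18.3% reached the coverage cut-off. Over uORFs of all lengths these shares were 18.0% and 32.7%, so few of 9 would do so at either share. Whether reads were counted by strand is not stated in the sources used here.

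A group of long uORFs ran up to the very edge of the CDS. Of the 111 with a paired CDS, 19 ended 0 to 2 nt before it (17.1%, 95% Wilson interval 11.2 to 25.2), and none ended 3 to 15 nt before it. Among shorter uORFs 1320 of 13994 ended 0 to 2 nt before their CDS (9.43%, 8.96 to 9.93), but only 98 ended 3 to 5 nt before it. The study's methods describe uORFs as starting at an AUG and reaching a stop codon in their own frame inside the 5′ UTR. Whether the 19 long uORFs do so, and whether listed ends include that codon, was not read here. No genome sequence of that release was used. If the listed ends leave it out, a gap of 0 to 2 nt has no room for its 3 nt. With a gap of 0 nt the uORF is in the frame of the CDS, which does not say whether a stop codon separates them. This was the case for 6 long uORFs, in not, Mitofilin (CG6455), rdgA, Rbp9, mtt and CG42816, or 5.41%, against 1.87% of shorter uORFs. The gene not (non-stop) encodes the histone H2B deubiquitinase of the SAGA complex, Mitofilin a protein that shapes mitochondrial cristae, rdgA a diacylglycerol kinase of the eye and Rbp9 an RNA-binding protein of the Elav family. The other 13 were out of frame by 1 nt (6 uORFs, for example in the zinc transporter gene ZnT63C) or 2 nt (7 uORFs, for example in chinmo, eIF5B and Eno). Outside this group distances were wide, and the median genomic distance to the CDS over all 111 was 310 nt.

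**Figure D1:**
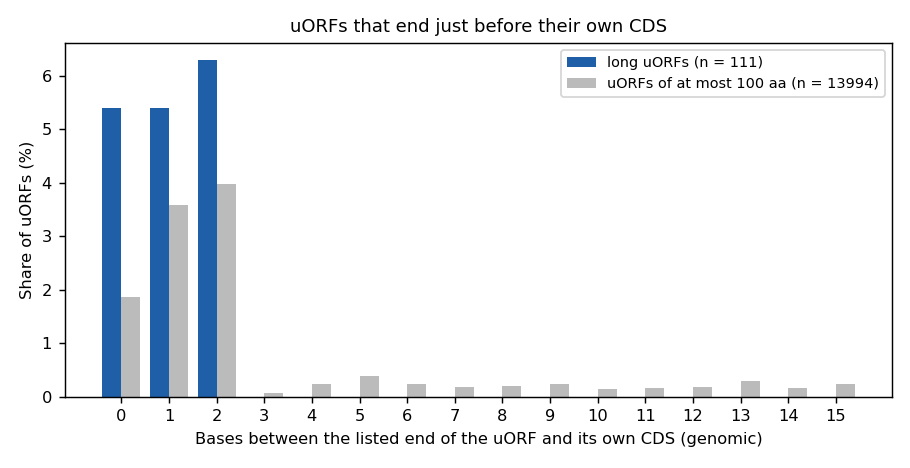
Share of uORFs (vertical axis, %) by the number of bases between their listed end and the CDS of their own transcript (horizontal axis, genomic distance of 0 to 15 nt), for 111 long uORFs (blue) and 13994 shorter ones (grey). Both kinds pile up at 0, 1 and 2 nt, where 17.1% of long and 9.43% of shorter uORFs lie, and no long uORF lies at 3 to 15 nt.

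Some long uORFs had no listed mRNA in these cells, about as often as shorter ones. The mRNA density listed with a uORF is labelled as an exon value, and uORFs of different length in 1 transcript share it. An mRNA density above 0 was listed for 99 of 126 long uORFs (78.6%, 70.6 to 84.8), against 75.8% of shorter ones. At 5 RPKM or more there were 53 long uORFs (42.1%, 33.8 to 50.8), against 51.4% (50.6 to 52.2) of shorter ones. The median over those transcribed was 7.60 RPKM, against 12.3 RPKM for shorter uORFs. Examples from the 27 without mRNA, picked after the values were seen, are 2 reading frames in the Hox gene Abd-B and 2 in disco-r. Others are 1 in the neural factor pros and 1 in the proneural gene ase. The 2 longest reading frames were hardly or not transcribed. The 849-nt frame in mtt, a glutamate receptor relative, had neither mRNA nor footprints. The 909-nt frame in Dred had 0.159 RPKM of mRNA and 1 read each in the all polysome and extensive libraries. The third longest, FBtr0310542_11, of 816 nt and with gw as the next CDS on its strand, was transcribed at 34.9 RPKM and held 14, 4, 6 and 26 footprints in small, large, all and extensive libraries. These covered 17.2% to 36.3% of it, so it passed in none.

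A uORF was counted as translated in a library at 11.8 RPKM or more, with at least 0.57 of its length covered by footprints and at least 5 reads, which are the study's own requirements. The coverage requirement takes more footprints on a longer uORF, and the shares below were not adjusted for length. In small polysomes 7 long uORFs passed (5.56%, 95% Wilson interval 2.72 to 11.02), where 6.78% of all uORFs with values passed. In large polysomes 5 passed (3.97%, 1.71 to 8.95), where 5.60% of all did. In all polysomes 14 passed (11.1%, 6.73 to 17.8), where 9.60% of all did. In the extensive library 9 passed (7.14%, 3.80 to 13.0), where 13.3% of all did, so that here the interval of the long uORFs lay below the share of all. This was not so among uORFs with at least 5 RPKM of mRNA, where 8 of 53 long uORFs passed in the extensive library (15.1%, 7.85 to 27.1), against 24.8% of shorter ones. In at least 1 of the 4 libraries 17 passed (13.5%, 8.60 to 20.5), where 18.0% of all did. Of the 17, 4 passed in every library, which is 3.17% of long uORFs, against 2.06% of shorter ones. A further 6 passed in 2 libraries (4.76%, against 4.73%) and 7 in 1 library (5.56%, against 7.99%). None passed in exactly 3, where the upper bound of the interval is 2.96%, against 3.21% of shorter ones. Of the 53 with at least 5 RPKM of mRNA, 16 passed somewhere (30.2%, 19.5 to 43.5), against 33.3% of shorter uORFs at that mRNA level. Leaving out 1 of the 4 libraries left 13 to 16 long uORFs, and 13 was the number without the all polysome library. Of the 7 that passed in small polysomes 4 passed in the deeper repeat, which added 5 others. Of the 17, only the reading frames in Xrp1, nej, MESR4 and CG3409 overlapped no other listed uORF on the same strand. For the others, the deposited values do not tell which of the overlapping frames a footprint belongs to.

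**Figure D2:**
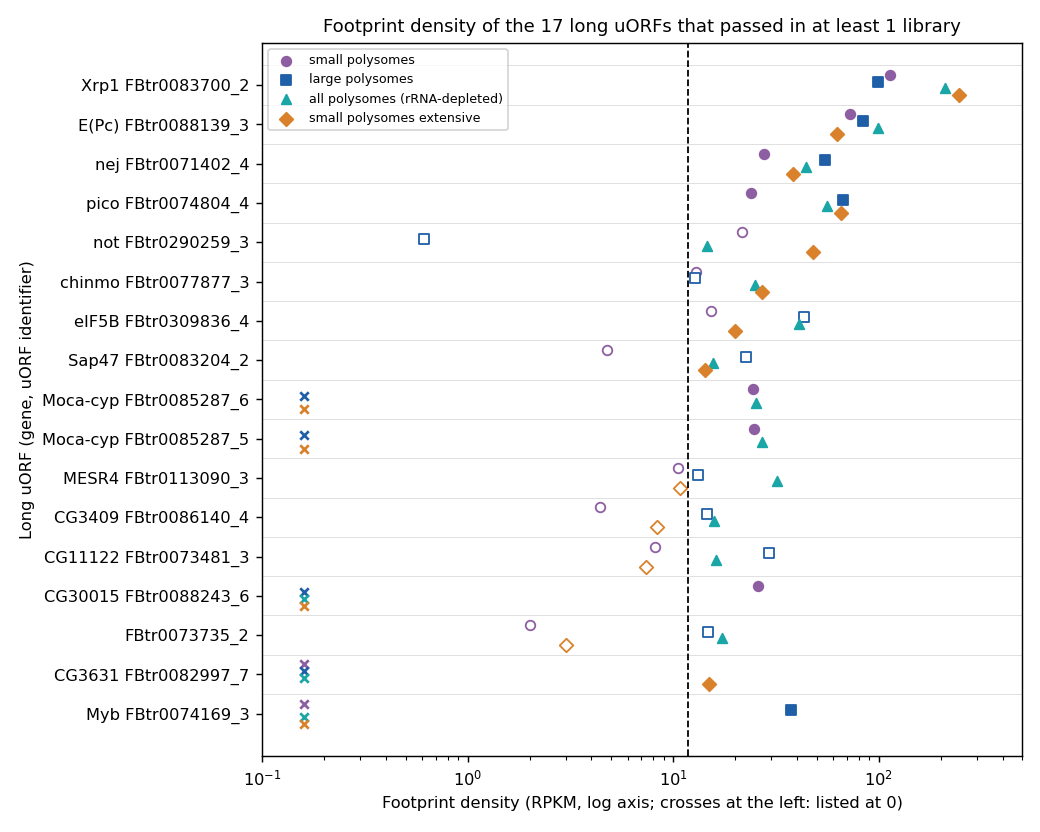
Footprint density (RPKM, log axis) in each of the 4 footprint libraries for the 17 long uORFs that passed in at least 1 library, each named by gene and uORF identifier. Filled symbols mark a library in which the uORF passed, open symbols one in which it did not, crosses at the left a listed value of 0, and the dashed line 11.8 RPKM. The top 4 rows are filled throughout, and the large polysome value of not lies far to the left of its other values.

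The 4 long uORFs that passed in every library carried most of the reads recovered from listed densities. Together they held 57.6% of these small polysome reads on long uORFs, 56.8% of the large, 61.1% of the all polysome and 64.4% of the extensive reads. Long uORFs listed at 0 RPKM add no reads here, although their footprints are not absent. They were 17 of 49 with any coverage in small, 13 of 41 in large, 18 of 53 in all and 28 of 67 in extensive libraries. The reading frame FBtr0083700_2 in Xrp1 (chromosome 3R, 14741178 to 14741531, plus strand, FlyBase Release 5, 354 nt in 1 part) had the highest density of all. Xrp1 encodes a stress-induced bZIP transcription factor. Its densities were 114 RPKM in small, 99.0 in large, 209 in all and 247 in the extensive library, from 221, 92, 236 and 800 reads, and footprints covered 0.980 to 1.00 of it. The 2 small polysome libraries differed by 2.17 times, and the all polysome value lay between them. Its mRNA density was 363 RPKM, the highest among long uORFs. Its translational efficiency (TE, footprint over mRNA RPKM) was 0.313, 0.273, 0.576 and 0.680. It was listed under 1 transcript, 4822 nt upstream of the CDS in the genome, introns included.

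The reading frame FBtr0088139_3 in E(Pc) (2R, 7341098 to 7341694, plus strand, 597 nt) varied least between libraries among these 4. E(Pc), or Enhancer of Polycomb, encodes a subunit of the Tip60 histone acetyltransferase complex. Densities were 72.2, 83.6, 98.7 and 62.5 RPKM in small, large, all and extensive libraries, from 237, 131, 188 and 342 reads. Coverage lay between 0.856 and 0.963, and TE between 2.21 and 3.50. Its highest and lowest libraries differed by less than the 2 small polysome libraries of Xrp1. It ends 127 nt before the CDS and was listed under 5 transcripts.

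In nej, which encodes the acetyltransferase CBP, the reading frame FBtr0071402_4 (X, 9577001 to 9577705, minus strand, 705 nt, 235 aa) was the longest that passed. It had 27.6 RPKM in small, 54.6 in large, 44.5 in all and 38.1 in the extensive library, with coverage of 0.725 to 0.862. In pico, which encodes an actin regulator of the MRL family, FBtr0074804_4 (X, 19745341 to 19745745, minus strand, 405 nt) had 23.8, 66.8, 55.7 and 65.5 RPKM, with coverage of 0.807 to 0.901. For both, the initial small polysome library was the lowest of the 4. The TE of nej was 1.23 to 2.42 and that of pico 1.22 to 3.42.

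The reading frame in not differed from all of these between fractions. FBtr0290259_3 (3L, 18614592 to 18615212, minus strand, 621 nt, 207 aa) abuts the CDS in its frame and takes up nearly the whole 638-nt leader. It had 21.7 RPKM in small polysomes, 0.613 in large, 14.6 in all and 48.0 in the extensive library, from 74, 1, 29 and 273 reads. Coverage was 0.502, 0.0435, 0.599 and 0.736, so it passed in the all polysome and extensive libraries. Both small polysome libraries were high and the large polysome library was nearly empty. The small over large density ratio was 35.3 (95% Clopper-Pearson interval 6.15 to 1414), and 78.2 (13.9 to 3101) with the extensive library. For the CDS of the same transcript these ratios were 1.23 and 1.62. These are the highest ratios among the long uORFs ranked, and are described as such. They rest on the single large polysome read.

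The other reading frames that passed in 2 libraries did so in the all polysome library and 1 other. In chinmo (2L, 1690186 to 1690635, plus strand, 450 nt), a BTB zinc-finger transcription factor gene, densities were 12.9, 12.7, 25.1 and 27.2 RPKM, and coverage was 0.407 and 0.447 in the first 2 libraries and 0.791 and 0.758 in the others. In eIF5B, the GTPase that joins the ribosomal subunits, FBtr0309836_4 (3L, 3460245 to 3460761, minus strand, 414 nt in 2 parts) had 15.2, 43.5, 41.0 and 20.1 RPKM. Large polysomes were high here but their coverage of 0.551 fell just short. In Sap47, a synapse-associated protein gene, FBtr0083204_2 (3R, 11760846 to 11761265, plus strand, 420 nt) had 4.76, 22.7, 15.7 and 14.3 RPKM. In Moca-cyp, a cyclophilin gene, the nested reading frames FBtr0085287_6 (348 nt) and FBtr0085287_5 (303 nt) at 3R, 24167403 to 24167750, passed in small and all polysomes, with 24.6 and 25.2 RPKM for the outer frame and 24.6 and 26.9 RPKM for the inner one. These 2 share their bases and so their footprints, and are not independent. Counted once per overlapping stretch, 6 passed in small and 13 in all polysomes.

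A further 4 passed in the all polysome library alone. MESR4 (345 nt) had 10.5, 13.3, 31.8 and 10.8 RPKM. The reading frame in chk (CG3409, a monocarboxylate transporter, 495 nt) had 4.41, 14.6, 15.8 and 8.38 RPKM. CG11122 (312 nt) had 8.16, 29.3, 16.1 and 7.35 RPKM, and FBtr0073735_2 (363 nt, 179 nt before the CDS of sno) had 2.004, 14.7, 17.3 and 3.01 RPKM. In the last 3, both small polysome libraries were lower than the large and all polysome libraries, with no overlap. Coverage was highest in the all polysome library, at 0.636 to 0.832 for the 4, against 0.311 to 0.530 in large polysomes. MESR4 missed in small and extensive libraries on density alone, as its coverage was 0.594 in both. The remaining reading frames passed in 1 library each, CG30015 in small polysomes, Myb in large polysomes and CG3631 in the extensive library, and they were listed at 0 RPKM in the other 3.

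Apart from CG3631 in large polysomes, where coverage was also 0, these listed zeros stood beside footprints. The reading frame in Myb, a transcription factor gene (X, 15751210 to 15751566, minus strand, 357 nt), was covered to 0.728 in small, 0.725 in large, 0.885 in all and 0.846 in the extensive library, but had a density only in large polysomes (37.3 RPKM, 35 reads). To cover that much takes at least 8, 8, 10 and 9 footprints of 34 nt, the longest that were purified. CG30015 (2R, 6761371 to 6761790, minus strand, 420 nt) was covered to 0.617, 0.571, 0.976 and 0.871, but had a density only in small polysomes (25.98 RPKM, 60 reads). The outer Moca-cyp frame was covered to 0.434 in large and 0.828 in extensive libraries, where its density is listed as 0. In all, 10 long uORFs reached the coverage cut-off in a library in which they are listed at 0 RPKM, and for 8 long uORFs there was coverage in all 4 libraries and a density in none.

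Among long uORFs that reached the coverage cut-off, 4 of 12 were listed at 0 RPKM in small polysomes, 2 of 7 in large, 4 of 18 in all and 9 of 19 in the extensive library. For shorter uORFs the shares were 24.2%, 21.8%, 28.5% and 33.0%, so zeros of this kind were not particular to the long ones. By coverage alone 12 long uORFs would pass in small polysomes (9.52%, 5.53 to 15.9), 7 in large (5.56%, 2.72 to 11.02), 18 in all (14.3%, 9.23 to 21.5) and 19 in the extensive library (15.1%, 9.87 to 22.4). For all uORFs these shares were 13.6%, 11.5%, 22.5% and 25.7%. In at least 1 library it would be 23 long uORFs (18.3%, 12.5 to 25.9), where 32.7% of all would pass. The coverage cut-off takes more footprints on a longer uORF, and 7715 of the 14788 uORFs with values were of up to 20 aa. Length was not adjusted for. Under this rule, which was added after the data were seen, the intervals of the long uORFs lay below the share of all uORFs in large, all and extensive libraries and in their union, though not in small polysomes. Among uORFs with at least 5 RPKM of mRNA this held for the union alone, with 41.5% (29.3 to 54.9) of long against 58.3% of shorter uORFs. In single libraries the intervals then held the share of the shorter ones, with 13.2% (6.55 to 24.8) against 21.8% in large, 34.0% (22.7 to 47.4) against 41.1% in all and 34.0% (22.7 to 47.4) against 46.5% in the extensive library.

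**Figure D3:**
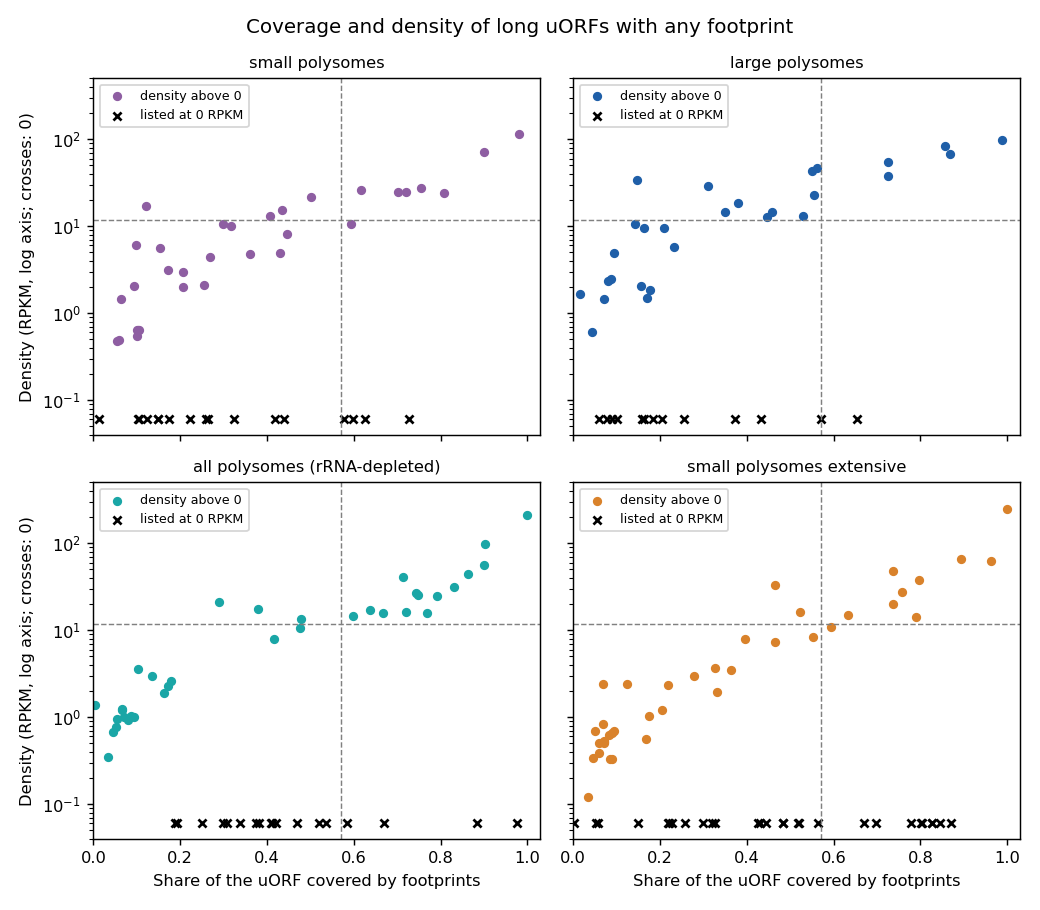
Share of each long uORF covered by footprints (horizontal axis) against its density (vertical axis, RPKM, log), for the long uORFs with any coverage in each of the 4 footprint libraries. Dashed lines mark the cut-offs of 0.57 and 11.8 RPKM, and crosses at the bottom are long uORFs listed at 0 RPKM, of which 4, 2, 4 and 9 lie right of the coverage cut-off in small, large, all and extensive libraries.

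The 6 long uORFs that reached the coverage cut-off but never passed are mostly of this kind. In Trf4-1, a poly(A) polymerase gene (X, 312 nt in 2 parts, ending 1 nt before the CDS), coverage was 0.577, 0.654, 0.519 and 0.827 with no density in any library. In crc, the fly ATF4, FBtr0332001_5 (2L, 336 nt in 2 parts, 24 nt before the CDS) was covered to 0.625, 0.256, 0.381 and 0.443, again with no density, on an mRNA of 116 RPKM. CG43154 was covered to 0.597, 0.562, 0.586 and 0.699 and had a density in large polysomes only (47.0 RPKM, 31 reads), where its coverage just missed. CG42748 was covered to 0.670 in all polysomes and 0.779 in the extensive library, with no density. In fl(2)d, an mRNA methylation and splicing factor gene, and in Cirl, a latrophilin receptor gene, coverage was 0.804 and 0.670 in the extensive library, where both are listed at 0 RPKM. A second long uORF of Xrp1, FBtr0334523_2 (3R, 14745518 to 14745889, 372 nt), lay on an mRNA of 360 RPKM, was covered to 0.438, 0.0780, 0.339 and 0.484 and is listed at 0 RPKM throughout. Coverage there was highest in the small polysome libraries and lowest in large polysomes.

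Others with abundant mRNA stayed below the coverage cut-off in every library. The reading frame in Eno (366 nt in 3 parts), on an mRNA of 209 RPKM, had 17.3, 10.6, 0 and 2.44 RPKM from 17, 5, 0 and 4 reads, and coverage of 0.120 to 0.298. It is the one that faces the CDS of Rrp40, whose part in these reads was not tested. FBtr0290273_2 (3R, 366 nt in 2 parts, next CDS CG14384), at 81.4 RPKM of mRNA, had 1 read, in the extensive library, and its coverage was 0 in the other 3. Mitofilin (306 nt, in frame with its CDS) had 10.1, 33.6, 17.4 and 33.5 RPKM but coverage of only 0.147 to 0.464, so its reads were gathered on less than 50% of the reading frame in every library. Of the 53 long uORFs with at least 5 RPKM of mRNA, 6 had no coverage in any library (11.3%, against 18.0% of shorter uORFs at that mRNA level), in Ptp61F, Eip75B, tara, nrv2, CG4622 and CG42797. The uORF in Ptp61F, a tyrosine phosphatase gene, had a listed mRNA density of 19.0 RPKM. There 3 counts would be 1.41, 2.95, 2.43 and 0.846 RPKM in small, large, all and extensive libraries. This limits the TE to 0.0742, 0.155, 0.128 and 0.0445. For Eip75B, a nuclear receptor gene with 14.6 RPKM of mRNA, the limits on the TE were 0.115, 0.241, 0.199 and 0.0692. These limits lie below the TE of every long uORF that passed in the library in question. They rest on exon values of mRNA, so whether these leaders themselves were transcribed was not tested. Conversely, among the 27 without mRNA 1 had any footprint coverage (3.70%, against 1.69% of shorter uORFs without mRNA).

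Any footprint coverage at all was more frequent. It was recorded for 49 of 126 long uORFs in small polysomes (38.9%, 30.8 to 47.6), 41 in large (32.5%, 25.0 to 41.1), 53 in all (42.1%, 33.8 to 50.8) and 67 in the extensive library (53.2%, 44.5 to 61.7). Over all uORFs these shares were 30.5%, 26.5%, 38.9% and 43.6%, below the interval of the long uORFs in the small and extensive libraries only. In at least 1 library it was recorded for 70 long uORFs (55.6%, 46.8 to 63.9), where 49.8% of all had any. Length, which gives a footprint more bases to fall on, was not adjusted for. The median TE of the 98 long uORFs with a median mRNA density above 0 was 0 in every library. This value counts listed zeros as they stand, although 18 of the 53 with coverage in the all polysome library and 28 of the 67 in the extensive library are listed at 0 RPKM. Among those that passed, the median TE was 0.454 in small (n = 7, range 0.313 to 2.56), 2.42 in large (n = 5, 0.273 to 3.42), 1.48 in all (n = 14, 0.386 to 3.50) and 1.69 in the extensive library (n = 9, 0.331 to 5.42). For shorter uORFs that passed the medians were 1.42, 2.23, 1.72 and 1.69. The cut-off on density selects for these values in both kinds.

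By length, the share that passed in the extensive library was 14.3% (13.5 to 15.1) of uORFs of up to 20 aa, 12.8% at 21 to 50 aa, 9.36% (7.77 to 11.2) at 51 to 100 aa and 7.14% (3.80 to 13.0) of the long uORFs. In the all polysome library there was no such order, with 8.49%, 10.8%, 10.7% and 11.1%. In small polysomes the shares were 7.22%, 6.48%, 5.45% and 5.56%, and in large polysomes 6.07%, 5.27%, 4.27% and 3.97%. The intervals of the long uORFs overlapped those of the 51 to 100 aa class in all 4 libraries. These shares were not adjusted for mRNA level, and the coverage cut-off takes more footprints on a longer uORF.

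**Figure D4:**
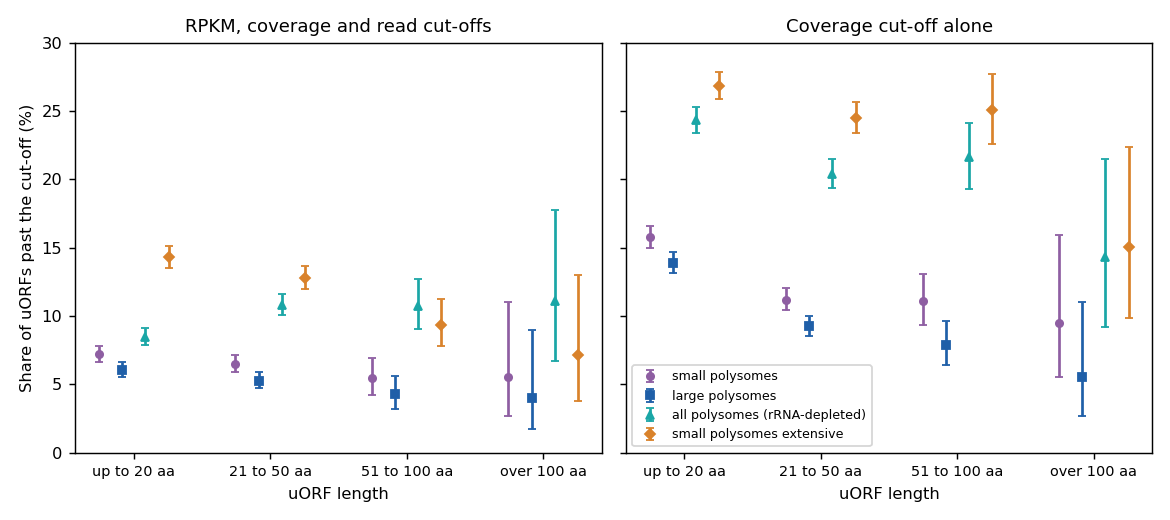
Share of uORFs (vertical axis, %) past the cut-offs on density, coverage and reads (left) or past the coverage cut-off alone (right), by uORF length class and footprint library, with 95% Wilson intervals. The classes hold 7715, 5846, 1101 and 126 uORFs from left to right, so the intervals are widest for the long uORFs, where they overlap those of the 51 to 100 aa class by both rules except in the extensive library by coverage alone.

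Ribosome density on the long uORFs that passed was of the same order as that of the CDS behind them. The ratio of uORF to CDS density had a median of 0.725 in small polysomes (n = 7, range 0.259 to 1.02), 0.558 in large (n = 5, 0.269 to 0.854), 0.715 in all (n = 13, 0.379 to 1.05) and 1.14 in the extensive library (n = 9, 0.481 to 1.95). In the extensive library 5 of 9 were denser than their CDS, against 2 of 7 in small polysomes, 1 of 13 in all and 0 of 5 in large polysomes. In Xrp1 the CDS was denser throughout, with ratios of 0.403, 0.269, 0.379 and 0.481. In E(Pc) the frames were nearly even, with 0.902, 0.854, 1.05 and 0.936. In nej the uORF was the less dense in the first 3 libraries (0.725, 0.558 and 0.815) and the denser in the extensive library (1.57), and in pico likewise (0.383, 0.508, 0.566 and 1.14). In not the ratio was 0.838, 0.0293, 0.627 and 1.41. As no requirement on density was put on the CDS, the cut-off on the uORF raises these ratios for genes of low density.

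**Figure D5:**
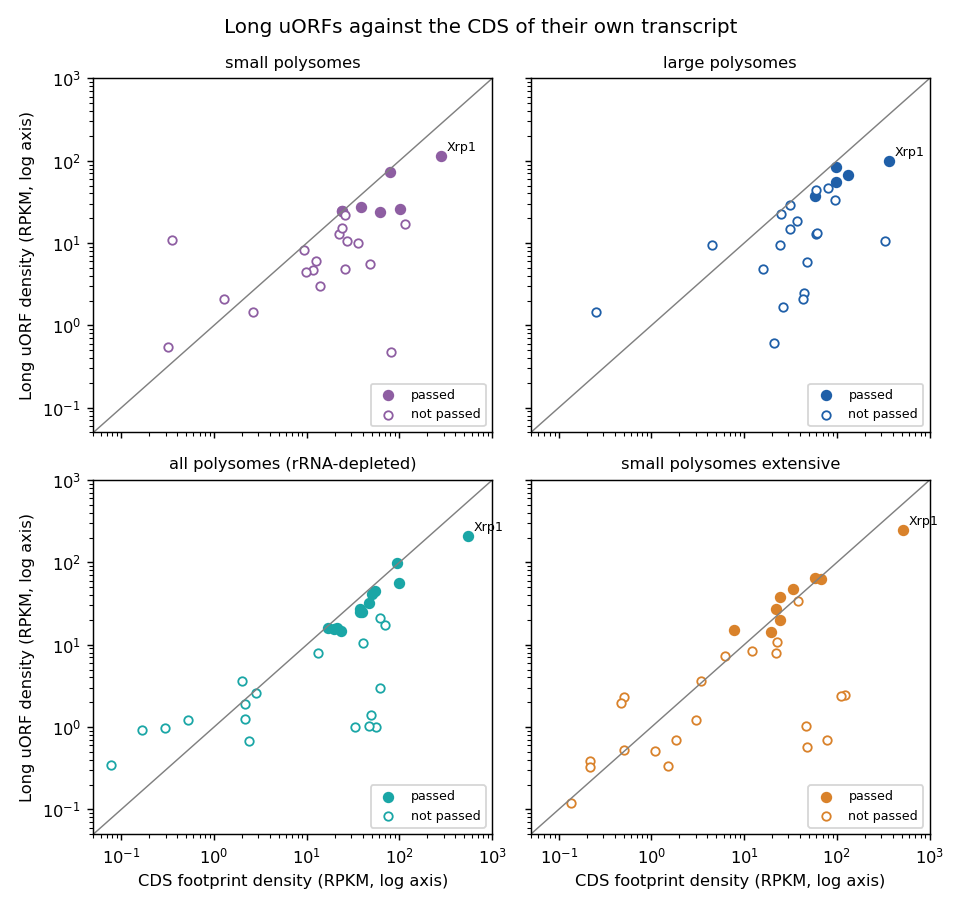
Footprint density of each long uORF (vertical axis) against that of the CDS of its own transcript (horizontal axis), both in RPKM on log axes, in the 4 footprint libraries, for pairs with a density above 0 in both. Filled points passed in that library, the diagonal marks equal density, and Xrp1 is labelled. Points that passed lie below the diagonal in large polysomes and, but for 2, in small polysomes, and 5 of 9 lie above it in the extensive library.

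Small and large polysomes were compared for the 15 long uORFs with reads in both and at least 20 reads in the 2 together. The median small over large density ratio was 0.506 (range 0.159 to 35.3), and 8 had an interval wholly below 1, 1 (not) wholly above 1 and 6 an interval that held 1. The lowest were Dcp2, the mRNA decapping enzyme gene, at 0.159 (0.0453 to 0.461), Sap47 at 0.210 (0.0933 to 0.443) and CG11122 at 0.279 (0.133 to 0.561). The highest after not were Eno at 1.62 (0.575 to 5.63) and Xrp1 at 1.15 (0.895 to 1.48). The CDSs of the same 15 transcripts had a median ratio of 0.402, and the uORF lay below its CDS for 7 of 15. When small polysomes were represented by the extensive library, the median was 0.748, 5 intervals lay below 1 and 3 above it (not, Xrp1 and chinmo), and Eno crossed to the other side at 0.229. Dcp2 was then listed at 0 RPKM although footprints covered 0.484 of it. That zero enters the median, and its interval is 1 of the 5 below 1. The 2 small polysome libraries differed from each other by 0.141 to 3.32 times over the 14 with reads in both. The interval excluded 1 for 9 of 15, a count that includes the listed zero of Dcp2. The low end of the range over the 14 is Eno, on 17 and 4 reads, and the other 13 lay between 0.866 and 3.32. Leaving aside the listed zero of Dcp2, with either small polysome library the interval against large polysomes lay wholly below 1 for CG11122 (0.279 and 0.251), eIF5B (0.349 and 0.461) and nej (0.506 and 0.698), and wholly above 1 for not.

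On either side of the length limit, the shortest long uORFs, of 303 nt, were the inner frame of Moca-cyp, which passed in 2 libraries, and FBtr0089242_7 on chromosome 4, with no mRNA and no footprint. Just under the limit, at 300 nt, FBtr0076319_5 of CG8177 had 0, 14.7, 0 and 6.30 RPKM and coverage of 0.107 to 0.303, and FBtr0070206_3 of CG32812 had 0.606, 2.54, 3.13 and 1.82 RPKM and coverage of 0.0767 to 0.270. Neither passed in any library.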

How the data were processed

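Per the file headers and the study's methods, the authors removed rRNA and tRNA reads with Bowtie, mapped the others to FlyBase Release 5 with TopHat (unique matches, up to 2 mismatches), and deposited the density of each ORF as RPKM and its footprint coverage as a fraction from 0 to 1. Tables of uORFs and of annotated CDSs were used.

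Distinct uORFs were counted by chromosome, strand and coordinates. Footprint values were the same wherever a uORF was listed, and for 32 long uORFs with differing mRNA RPKM the median was used. Reads were recovered as RPKM times length times the library's divisor, and came out whole (within 0.01) for 100% of long uORFs when the length of the longest part was used, so RPKM of spliced uORFs refers to that length. TE was the footprint RPKM of the uORF over the mRNA RPKM listed with it, which is an exon value. The paper divides by mRNA density in the feature itself. The mRNA values appear to pool 2 libraries. Overlap with CDSs of 1 nt or more counted. Host genes were paired through BDGP6 identifiers (111 of 127 long uORFs, the CDS length being the same in both annotations for 111), and no BDGP6 coordinates were used. Gene names are those of the tables, and current symbols are given for some.

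Of the footprint fractions only the small polysomes have a repeat, so no test was run across uORFs. Shares have 95% Wilson intervals, ratios of reads 95% Clopper-Pearson intervals and medians order-statistic intervals, and all cover counting error or spread across uORFs only. A count of 0 allows up to 3 counts. The procedures were tested on simulated data. Named are up to 12 long uORFs that passed in the most libraries, the 3 longest, those with same-strand CDS overlap, the 4 with most mRNA that passed in none, the 3 highest and lowest small over large ratios with at least 20 reads, and those at the length limit. Others are named as members of small groups and were chosen after their values were seen. Members and lists were chosen with earlier results of these data known. Alternatives varied the cut-offs, what was counted once, the length limit and divisor, the mRNA level and which libraries entered. The work was done in Python 3.11.15 with pandas 2.3.3, numpy 2.4.6, matplotlib 3.10.9 and scipy 1.17.1.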

Additional observations from a re-analysis of the deposited data

How the results depend on the processing

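No paired analysis was possible because, of the footprint fractions, only the small polysomes have a repeat, and no result comes from a test. Counting each listed entry gave 17, 16, 42 and 30 translated long uORFs in small, large, all and extensive libraries, in place of 7, 5, 14 and 9. A coverage cut-off of 0.4 gave 11 in large polysomes, and a doubled RPKM cut-off gave 9 in all polysomes. By coverage alone, an alternative added after seeing the data, 12 passed in small polysomes and 19 in the extensive library. At 1 and 5 RPKM of mRNA, 64 and 53 long uORFs counted as transcribed in place of 99. Leaving out a library left 13 to 16 of the 17 that passed in at least 1. The other alternatives, such as RPKM over the summed length, left out opposite-strand overlaps or 1 per overlapping stretch, stayed within 1.5 times of the counts or within the interval of the median. The large polysome library was the shallowest, and 5 reads there were worth 6.29 RPKM on the shortest long uORFs, below the density cut-off. Calls did not follow depth, with 14 in all polysomes and 9 in the deeper extensive library, and listed zeros with coverage can hide further calls.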

Other observations

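Over uORFs of all lengths that reached the coverage cut-off, a listed density of 0 RPKM went with splicing and with overlap. Of those in several parts, 72.6% were listed at 0 in small polysomes, 70.2% in large, 80.3% in all and 81.9% in the extensive library. Of those in 1 part that overlapped another listed uORF, the shares were 18.1%, 14.5%, 21.0% and 29.0%, and of those in 1 part without such overlap they were 12.1%, 9.38%, 14.7% and 17.4%. Among long uORFs in several parts the counts were 3 of 3, 1 of 1, 2 of 3 and 4 of 6, and among those in 1 part 1 of 9, 1 of 6, 2 of 15 and 5 of 13. What sets these zeros was not tested.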
